A study of Mus musculus with 6 samples.

Results

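Cyclin E, cyclin A, the kinase Cdk2 that both cyclins activate, and the phosphatase Cdc25a that removes inhibitory phosphates from Cdk2 were examined in red cell precursors of mouse bone marrow. The members are the genes Ccne1, Ccne2, Ccna2, Cdk2 and Cdc25a, chosen by name as drivers of S phase entry, and every probe set annotated to one of them alone was taken. They are 5 of 18192 genes on the array and hold 10 of its 45032 usable probe sets. A probe set is a group of short oligonucleotides read together, and some are shared between genes. The sort took cells positive for CD71, through which iron enters, and for Ter-119, which marks the erythroid lineage. The 6 arrays fall into 3 Rb-null samples, of the genotype EpoR-GFPcre/+; Rb fl/fl, and 3 controls, of the genotype EpoR-GFPcre/+; Rb fl/+. Both groups therefore carry a Cre recombinase fused to GFP at 1 copy of the erythropoietin receptor locus, and the controls also carry a floxed allele of Rb, so the comparison is between the loss of both copies and the loss of 1 in the cells that make Cre. For age, strain, sex and pooling of animals the sources used here give nothing. Whether replicates are separate animals is also unstated, so a p-value reflects only how far these samples spread, which may be technical.

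Cyclin E is the cyclin of the G1 to S transition. With Cdk2 it phosphorylates the retinoblastoma protein Rb and the proteins that load and fire replication origins, and cyclin A takes over the kinase once S phase has begun. Rb binds E2F transcription factors and holds down their targets, and the genes for cyclin E, cyclin A, Cdk2 and Cdc25a have all been described as E2F targets. Red cell precursors divide several times as they mature and then leave the cell cycle before they expel the nucleus.

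In Rb-null samples Ccne2 read 3.56-fold and Cdk2 1.90-fold above controls, and the brightest probe sets of Ccne1, Ccna2 and Cdc25a read 1.56-fold, 1.38-fold and 1.16-fold above them. All 8 member probe sets past the filter on dim signal were higher in Rb-null in each of the 3 pairs of arrays with the same replicate number, as were 20.3% of all 27019 probe sets tested. On the normalized scale 4 of the 8, in Ccne1, Ccne2, Ccna2 and Cdk2, had groups that did not overlap, against 5.73% of all probe sets (3.91% had non-overlapping groups with Rb-null lower). None of the 8 passed limma's moderated test adjusted over the whole table, which called 0 probe sets (0%) at adjusted p under 0.05 and found 1119 (4.14%) at unadjusted p under 0.05. Of the members, Ccne2 and Cdk2 were among the latter. With the replicate number as a block the test again called 0 probe sets (0%), although 4458 (16.5%) had an unadjusted p under 0.05, 8.72% on the higher side, and 6 of the 8 member probe sets were among these. Fitted with the block, a variance trend and robust moderation together it called 938 (3.47%), of which 605 (2.24%) were higher and 333 (1.23%) lower in Rb-null. The members called in that last fit were the leading probe sets of Ccne2, Ccna2 and Cdk2. These arrays measure a mixture of cells, so more cells in S phase and more RNA per cell cannot be told apart.

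The arrays themselves differed. Median intensity was 23.3 to 31.2, and both arrays numbered 3 carried 18S ribosomal RNA control signals of 542 and 1231 against 32.6 to 66.2 on the other 4. For Rb1, the floxed gene, controls 1, 2 and 3 read 2760, 2152 and 1379, and Rb-null samples 1, 2 and 3 read 4045, 3670 and 2897. That is higher, not lower, in the libraries labelled Rb-null. The sources used here do not place its probe set relative to the floxed part, so Rb1 does not check the labels, and all directions rest on them. Erythroid markers gave signal, with Slc4a1 (band 3) at 9114 to 10220 and Alas2 (the first enzyme of heme synthesis) at 8760 to 10602, and 4 probe sets shared between globin genes read 5015 to 11766. The only probe set that names Hba-a1 alone was dim, with 6.97 as its lowest value. Epor, the gene whose locus carries the Cre in both groups, read 2221, 266 and 609 in controls and 248, 2228 and 558 in Rb-null samples, so that pairs 1 and 2 differed in opposite directions (log2 differences of -3.24 and 2.96). Klf1, an erythroid transcription factor, had a log2 difference of 0.45 (SE 0.30) in the fit without the block. Its limma adjusted p was 0.9998 there, 0.249 with the block and 0.0482 with block, trend and robust moderation. The part of Epor or Klf1 in the members' values was not tested. S100a8, a granulocyte protein, read 9111 to 12488.

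Promoters of 3 of the 5 members were found in the RefSeq table of build GRCm38.p6, each from 250 bases before the start used there to 50 after it. They are shown as sequence only, and the part of E2F in the members' values was not tested. For Cdc25a the annotated gene begins at 109875518, among the bases counted here as before the start. Its positions below are therefore relative to the start used for the promoter, not to the first base of the gene. Ccne2 and Ccna2 were not matched. Words searched on both strands were the E2F words TTTCCCGC, TTTCGCGC, TTTGCCGC, TTTGGCGC and GGCGGGAA (the last overlaps the first on the opposite strand), the cell cycle homology word TTTGAA and the word CCAAT. Capitals mark the words found.
Ccne1, chr7:38107441-38107740, minus strand: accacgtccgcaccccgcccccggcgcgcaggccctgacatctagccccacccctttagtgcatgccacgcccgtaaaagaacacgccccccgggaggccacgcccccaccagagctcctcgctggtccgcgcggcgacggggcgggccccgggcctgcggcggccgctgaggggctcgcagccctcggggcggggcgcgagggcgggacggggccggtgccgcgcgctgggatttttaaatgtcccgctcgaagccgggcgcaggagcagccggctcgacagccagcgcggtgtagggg
Cdk2, chr10:128705002-128705301, minus strand: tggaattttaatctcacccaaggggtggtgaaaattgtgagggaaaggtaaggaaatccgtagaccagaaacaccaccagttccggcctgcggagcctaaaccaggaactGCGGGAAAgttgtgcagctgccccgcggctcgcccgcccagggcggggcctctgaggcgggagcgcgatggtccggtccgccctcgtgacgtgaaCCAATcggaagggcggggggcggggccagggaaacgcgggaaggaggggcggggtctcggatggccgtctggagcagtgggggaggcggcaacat
Cdc25a, chr9:109875329-109875628, plus strand: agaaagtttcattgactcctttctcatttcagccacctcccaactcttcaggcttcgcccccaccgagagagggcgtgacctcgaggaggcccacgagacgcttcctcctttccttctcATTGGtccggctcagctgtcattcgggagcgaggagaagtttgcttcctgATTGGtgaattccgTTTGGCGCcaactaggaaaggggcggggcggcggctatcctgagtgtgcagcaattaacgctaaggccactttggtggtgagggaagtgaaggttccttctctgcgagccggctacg

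The Cdk2 promoter held 1 E2F word, read as GCGGGAAA at positions -140 to -133 from the start, and the Cdc25a promoter held TTTGGCGC at positions -67 to -60. Any of the 5 E2F words was present in 3.89% of the 32851 promoters in the table. CCAAT, which is bound by NF-Y in many cell cycle promoters, occurred at 1 place in Cdk2 and at 2 places in Cdc25a, and in 37.4% of all promoters. The word TTTGAA was in none of the 3, and in 17.9% of all promoters. In the Ccne1 window none of these words occurred, which says only that these letters are not there. A match is a description of the sequence and no evidence of binding in these cells.

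Ccne2, cyclin E2, was measured by a single probe set, 1422535_at. Its intensity was 1273, 1273 and 299 in controls 1, 2 and 3, and 3510, 3065 and 2335 in Rb-null samples 1, 2 and 3. Every Rb-null array was brighter than every control array, and the lowest control was array 3, one of the pair with high 18S signal. The control mean was 948 ± 562 (SD, n = 3) and the Rb-null mean 2970 ± 593 (SD, n = 3). Within pairs the Rb-null array was 2.76, 2.41 and 7.80 times the control. After normalization the log2 difference was 1.83 (SE 0.49, 95% confidence interval 0.70 to 2.96), larger than that of 99.9% of probe sets tested, with an unadjusted p that ranked 218th and a limma adjusted p of 0.666. In the fit with block, trend and robust moderation its adjusted p by limma was 0.0286. Without control replicate 3 the log2 difference was 1.21, and without both arrays numbered 3 it was 1.31.

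Ccne1, cyclin E1, binds the same kinase, and both of its probe sets passed the filter. The brighter, 1441910_x_at, gave 863, 1587 and 514 for controls in replicate order, with 1502, 2031 and 1072 for Rb-null samples. Control array 2 exceeded Rb-null arrays 1 and 3, so the groups overlapped although each pair differed the same way. Its log2 difference was 0.64 (SE 0.37), with pair differences of 0.70, 0.25 and 0.97 and a limma adjusted p of 1.00. The other probe set, 1416492_at, read 521, 983 and 479 in controls and 923, 1293 and 910 in Rb-null samples. On these deposited values control array 2 again exceeded Rb-null arrays 1 and 3, whereas after normalization the groups just parted, at log2 values of at most 9.815 in controls and at least 9.816 in Rb-null samples. Its log2 difference was 0.65 (SE 0.30). The 2 probe sets thus gave nearly the same size of difference, but in the brighter one it was 0.33 without control replicate 3 and 0.98 without control replicate 2.

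**Figure D1:**
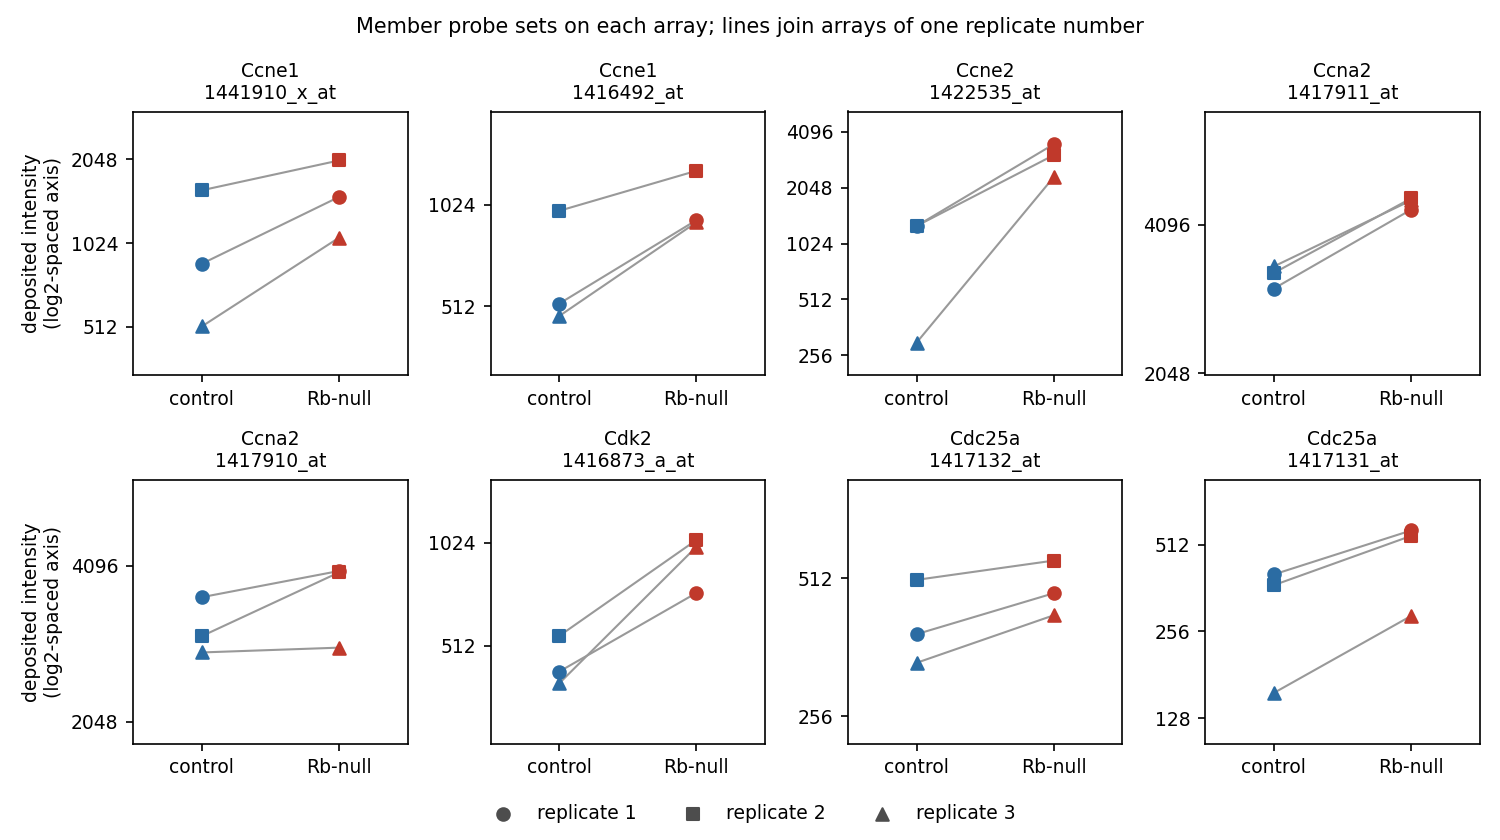
Deposited intensity (log2-spaced vertical axis) of the 8 member probe sets past the filter on each of the 6 arrays, control in blue and Rb-null in red, with lines joining arrays of the same replicate number. All lines slope upward, from 1.02 times (Ccna2 1417910_at, pair 3) to 7.80 times (Ccne2, pair 3).

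Ccna2, cyclin A2, carries Cdk2 through S phase, and both of its probe sets passed the filter. Probe set 1417911_at read 3042, 3272 and 3372 on the control arrays, with 4397, 4634 and 4591 for Rb-null. The groups were tight and did not overlap, with means of 3229 ± 169 (SD, n = 3) and 4541 ± 127 (SD, n = 3). Its log2 difference of 0.47 (SE 0.25, 95% confidence interval -0.09 to 1.03) had pair differences of 0.54, 0.41 and 0.46. The limma adjusted p was 1.00 in the fit without the block and 0.0373 with block, trend and robust moderation. The second probe set, 1417910_at, read 3561, 2995 and 2785 in controls and 4001, 3976 and 2845 in Rb-null samples. There the groups overlapped, the log2 difference was 0.20 (SE 0.28), and pair 3 differed by 0.11. Between the Ccna2 probe sets the log2 differences were 0.26 apart, which was not tested.

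Cdk2, the catalytic subunit, gave signal on 1 of its 2 probe sets. That probe set, 1416873_a_at, gave 430, 546 and 397 for controls, with 730, 1043 and 996 for Rb-null samples. All Rb-null arrays were above all controls, with means of 458 ± 78.5 (SD, n = 3) and 923 ± 169 (SD, n = 3). The log2 difference was 0.93 (SE 0.28, 95% confidence interval 0.30 to 1.56), larger than that of 98.1% of probe sets tested, and its unadjusted p ranked 307th. Its limma adjusted p was 0.796 without the block and 0.0302 with block, trend and robust moderation. Pair differences were 0.64, 0.90 and 1.25, and leaving out any 1 array gave 0.76 to 1.11. The second probe set, 1447617_at, read 5.59 to 7.46 on all arrays, below the filter intensity of 18.9, and was not tested.

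Cdc25a, the phosphatase that activates Cdk2 at S phase entry and is destroyed when DNA is damaged, had 2 probe sets past the filter. The brighter, 1417132_at, read 386, 507 and 335 in controls and 475, 559 and 425 in Rb-null samples. The groups overlapped, and the log2 difference was 0.21 (SE 0.25) with pair differences of 0.18, 0.12 and 0.34. Probe set 1417131_at read 404, 371 and 157 in controls and 574, 550 and 290 in Rb-null samples. Rb-null array 3 lay below control arrays 1 and 2, so these groups overlapped as well. Its log2 difference was 0.58 (SE 0.35), and 0.26 without control replicate 3, whose value of 157 was the lowest. Both had a limma adjusted p of 1.00. The remaining probe set, 1445995_at, read 0.757 to 15.4 and was below the filter.

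**Figure D2:**
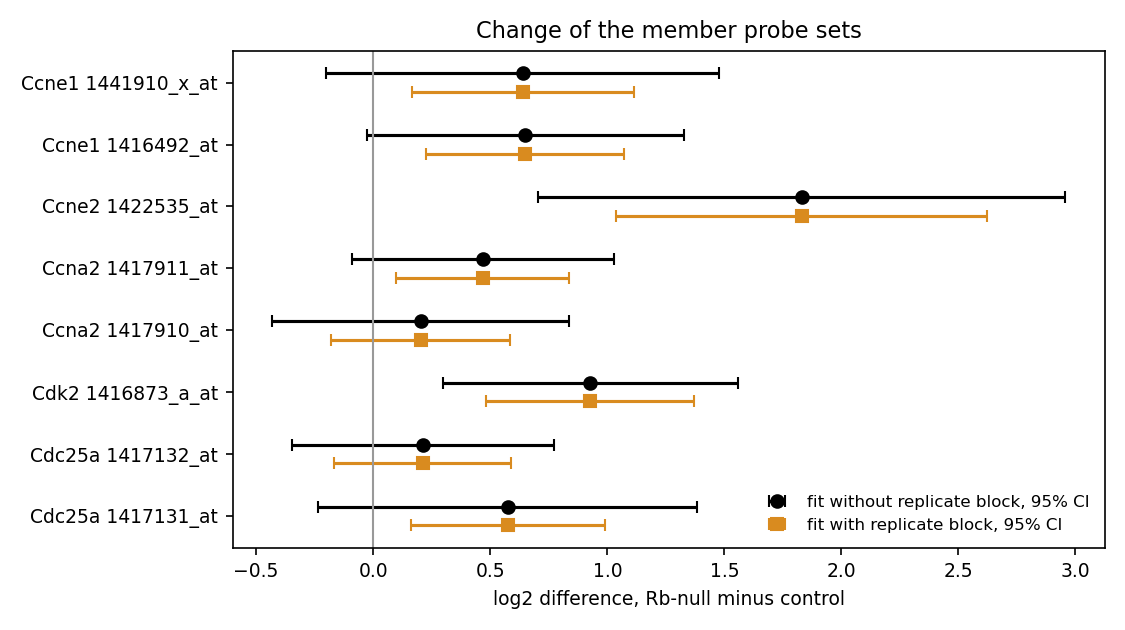
Log2 difference of Rb-null minus control (horizontal axis) for the 8 member probe sets, with 95% confidence intervals from the fit without (black circles) and with (orange squares) the replicate number as a block. Without the block only the intervals of Ccne2 (0.70 to 2.96) and Cdk2 (0.30 to 1.56) lie above 0.

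Differences for the members were read beside those of other cell types in the sort. Granulocyte markers had a lower mean in Rb-null for 15 of 16 genes, and their summed intensity was 38575 to 57839 in controls and 28345 to 57554 in Rb-null samples. In pair 2 that sum was nearly equal, at 57839 and 57554, and there the log2 differences of the leading probe sets were 1.19 for Ccne2, 0.90 for Cdk2, 0.41 for Ccna2, 0.25 for Ccne1 and 0.12 for Cdc25a. With the mean granulocyte level as a covariate the log2 differences were 1.63 for Ccne2, 1.03 for Cdk2, 0.75 for Ccne1, 0.42 for Ccna2 and 0.26 for Cdc25a. Because granulocyte markers were mostly lower in Rb-null, granulocyte content and genotype cannot be told apart by that covariate or by 1 pair. B cell markers were lower in mean for 6 of 8 genes, with sums of 522 to 791 in controls and 305 to 456 in Rb-null samples. Sums of macrophage markers were 1758 to 2971 and 1445 to 1836 (1 of 9 genes higher), of T and NK cell markers 417 to 490 and 333 to 462 (2 of 7 higher), and of megakaryocyte markers 346 to 561 and 322 to 376 (1 of 6 higher). Erythroid markers summed to 38274 to 39958 in controls and 38571 to 45425 in Rb-null samples (6 of 9 higher), and early progenitor markers to 274 to 427 and 344 to 512 (3 of 5 higher). No marker was at 0 on all 6 arrays, and the part of granulocytes, B cells, macrophages and the other types in the results was not tested.

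The arrays numbered 3 weighed differently on each member. Without both of them the log2 differences were 1.31 for Ccne2, 0.75 for Cdk2, 0.48 for the brighter Ccna2 probe set, 0.46 for the brighter Ccne1 probe set and 0.15 for the brighter Cdc25a probe set. The part of 18S signal in these values was not tested. All 8 probe sets kept a positive log2 difference under each of the alternatives in which they were fitted.

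**Figure D3:**
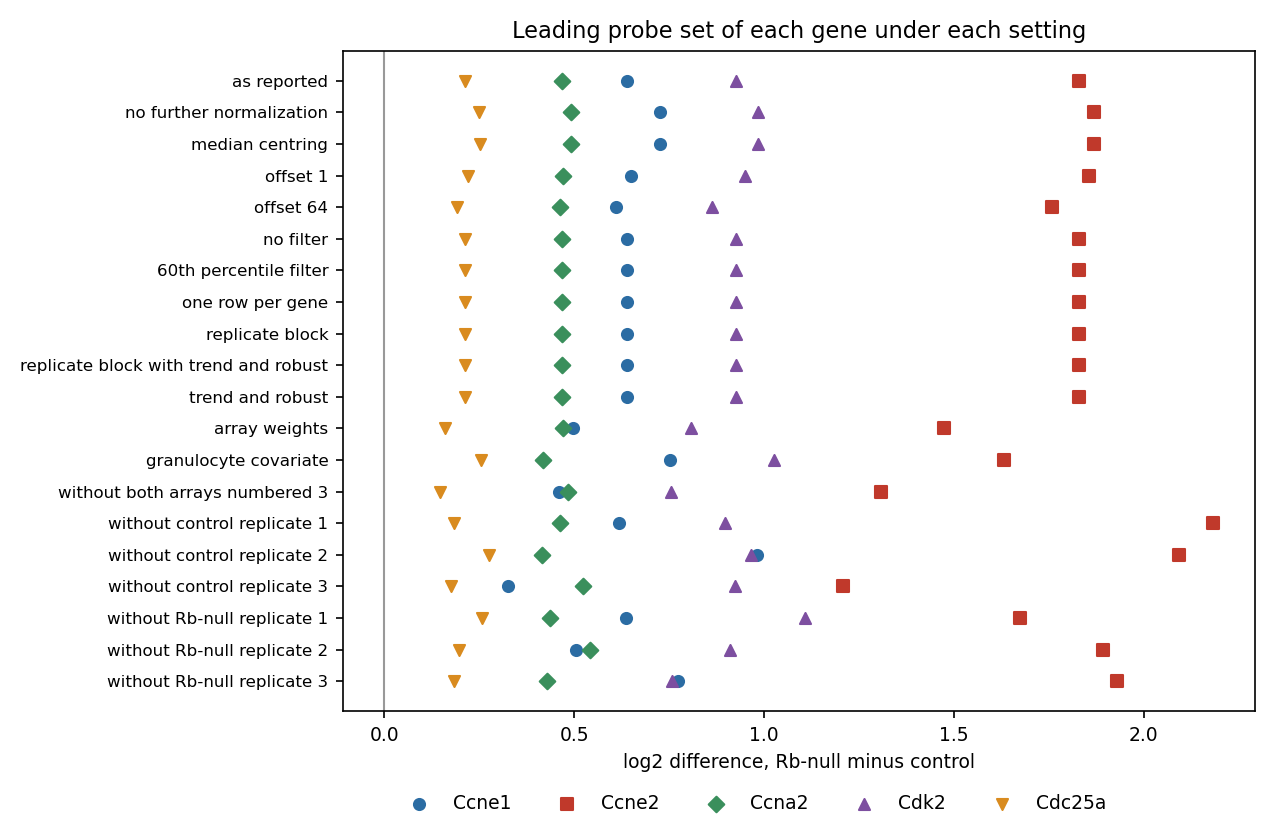
Log2 difference of Rb-null minus control (horizontal axis) of the brightest probe set of each member under the reported settings and 19 alternatives (vertical axis). All points lie above 0, and Ccne2 ranges from 1.21 without control replicate 3 to 2.18 without control replicate 1.

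Around Cdk2, a list of 52 partners, regulators and substrates was read, chosen with earlier results of these data known. Each of the 52 genes was represented by its brightest probe set. Of these, 50 were tested, 34 had a positive and 16 a negative log2 difference, and the median was 0.13, against 48.4% positive and a median of -0.01 over all probe sets tested. That background counts every probe set, whereas the list counts 1 per gene. With 1 row per gene the whole-table median was -0.04 and the list median 0.13. In each of the 3 pairs 22 of the 50 were higher and 8 lower, against 20.3% and 22.0% of all probe sets. None passed limma's test without or with the block. An unadjusted p under 0.05 was reached by 4 of the 50 without the block, against 4.14% of all probe sets, and by 12 with it, against 16.5%. With block, trend and robust moderation 4 of the 50 were called, against 3.47% of all probe sets. Skp2, Fbxo5 and Rb1, the floxed gene, were higher and Cdc25b lower. The list median was 0.06 without control replicate 3 and 0.24 without control replicate 1.

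Genes that act on the destruction of cyclins, of p27 or of Cdc25a differed in both directions. For Skp2, the F-box protein that targets the Cdk inhibitor p27 for destruction, controls read 191, 184 and 97.7, and Rb-null samples 483, 328 and 502. The groups did not overlap, and the log2 difference was 1.40 (SE 0.33, limma adjusted p = 0.585, and 0.0438 with block, trend and robust moderation). All 6 Skp2 probe sets past the filter were higher in each of the 3 pairs, with log2 differences of 0.90 to 2.24. Fbxo5, or Emi1, which protects cyclin A by inhibiting the anaphase-promoting complex, read 2313, 2699 and 1892 in controls and 4736, 4980 and 4556 in Rb-null samples. Its groups lay far apart, with a log2 difference of 1.02 (SE 0.25, limma adjusted p = 0.623, and 0.0142 with block, trend and robust moderation). Fbxw7, the F-box protein that targets cyclin E itself, read 122, 169 and 16.1 in controls and 59.5, 102 and 24.4 in Rb-null samples, a log2 difference of -0.39 (SE 0.60) with pair 3 opposite to the other pairs. Its other probe set had -0.71 (SE 0.49), lower in each pair (-0.57, -0.49 and -1.06). Of the 13 genes of this role 8 were positive and 5 negative.

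Inhibitors of Cdk2 were on the positive side without passing the test. Cdkn1b, which encodes p27, had means of 1026 ± 147 (SD, n = 3) for controls and 1258 ± 356 (SD, n = 3) for Rb-null, a log2 difference of 0.21 (SE 0.29). For Cdkn1a, p21, the brightest probe set gave 0.43 (SE 0.42). Rb-null array 1, at 341, stood above the other arrays, at 115 to 173. Without it the log2 difference was 0.06. The other Cdkn1a probe set had 1.66 (SE 0.27, limma adjusted p = 0.419), with pair differences of 1.99, 1.26 and 1.74, so the 2 probe sets disagreed in size. Cdkn1c, p57, had 0.45 (SE 0.32). The small Cks subunits, which help the kinase bind its substrates, had 0.29 (SE 0.38) for Cks1b and 0.23 (SE 0.24) for Cks2, both higher in each pair. Of other Cdk2-binding proteins, Cables2 had 0.39 (SE 0.30) and Cdk2ap2 0.22 (SE 0.58).

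Upstream switches of the kinase were mixed. Cdc25b, the relative of Cdc25a that acts at mitotic entry, read 2143, 2171 and 2552 in controls and 1454, 1727 and 1080 in Rb-null samples. Its groups did not overlap, in the direction opposite to Cdc25a, with a log2 difference of -0.76 (SE 0.26, limma adjusted p = 0.991, and 0.0409 with block, trend and robust moderation). Cdc25c had 0.14 (SE 0.33). The inhibitory kinases Wee1 and Pkmyt1 had -0.23 (SE 0.37) and 0.10 (SE 0.26), and of the Cdk-activating kinase Cdk7 had 0.14 (SE 0.31) and its cyclin partner Ccnh -0.26 (SE 0.28). Probe sets disagreed for Wee1, where another had 0.92 (SE 0.40), and for Cdk7, whose 4 probe sets ran from -0.79 (SE 0.34, lower in each pair) to 0.49 (SE 0.30, higher in each pair). Among checkpoint kinases that lead to the destruction of Cdc25a, Chek2 had -0.45 (SE 0.32) and Atr -0.30 (SE 0.39). The other genes of this role, Atm at 0.10 (SE 0.27) and Chek1 at 0.06 (SE 0.42), were positive, so 2 were positive and 2 negative. Cdk1, the mitotic kinase that also binds cyclin A, read 2854 to 3532 in controls and 4059 to 4738 in Rb-null samples, with a log2 difference of 0.47 (SE 0.25), while cyclin A1, Ccna1, was dim, at 30.2 to 53.2 in controls and 38.5 to 41.0 in Rb-null samples.

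Among substrates and E2F factors none passed the test without the block or with the block alone. Of 10 substrates and effectors of S phase entry 8 were positive, with a median of 0.35. They were led by Rb1, the floxed gene, at 0.75 (SE 0.32), whose probe set is not placed relative to the floxed part. Next was Ticrr, which helps fire origins once phosphorylated by Cdk2, at 0.49 (SE 0.29). The other Ticrr probe sets had 0.25 (SE 0.27) and 0.05 (SE 0.25), both lower in pair 3. E2f1 had 0.26 (SE 0.26) and its dimer partner Tfdp1 0.29 (SE 0.30), each higher in the 3 pairs. E2f2 had 0.13 (SE 0.25), and E2f3 had -0.48 (SE 0.52) and was lower in each of the 3 pairs. Of the 4 genes of this role 3 were positive and 1 negative. The other E2f1 probe sets had 0.93 (SE 0.26) and 0.52 (SE 0.68).

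**Figure D4:**
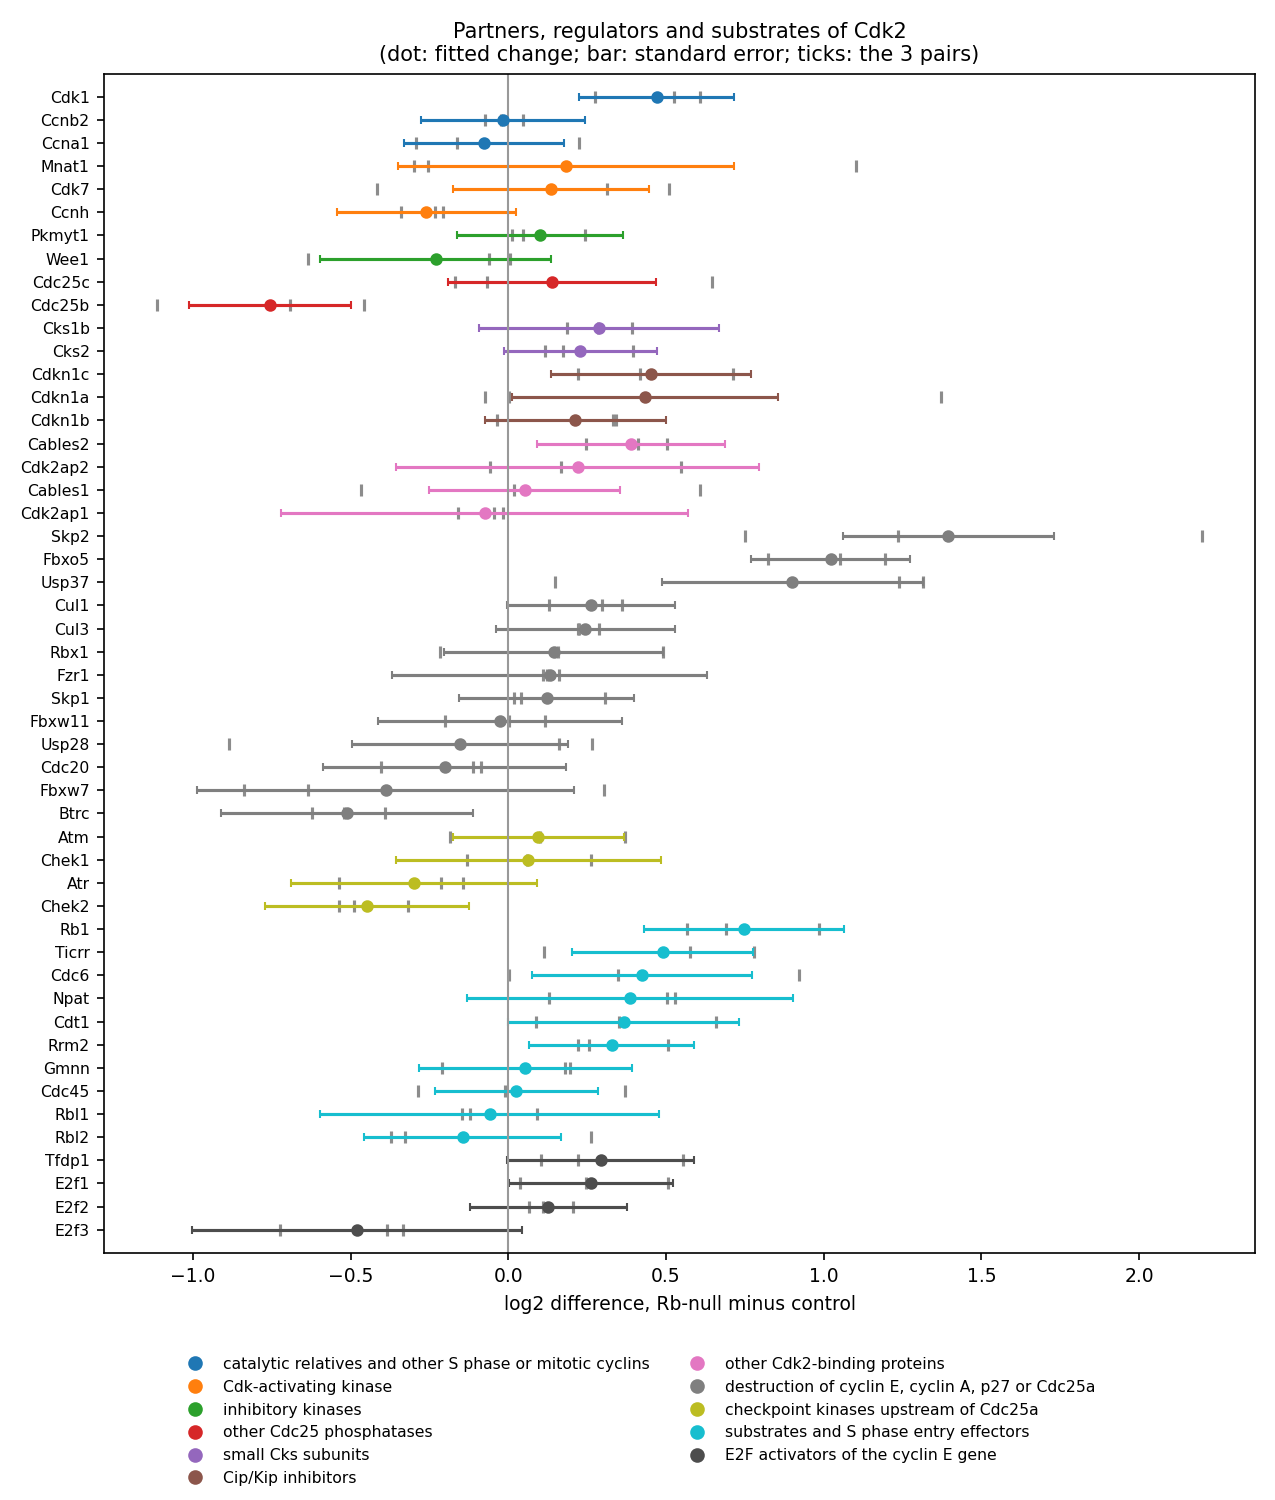
Log2 difference of Rb-null minus control (horizontal axis) for the 50 tested genes of the Cdk2 list (vertical axis), coloured by role, with standard error bars and grey ticks for the 3 pairs. Skp2 (1.40) and Fbxo5 (1.02) lie farthest to the right and Cdc25b (-0.76) farthest to the left, with log2 difference values as fitted without the block.

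The genes with the profile most like each member over the 6 arrays were found by the root mean square difference between log2 profiles, each centred on its own mean, among 22237 or 22238 probe sets with 1 gene name. For Ccne2 they were Ifrd1 (0.0765), Slc38a2 (0.171) and Camsap1 (0.193), against a spread of 1.11 in the Ccne2 profile itself. Ifrd1 read 131, 140 and 22.0 in controls and 415, 336 and 240 in Rb-null samples. For Cdk2, with a spread of 0.504, they were Purb (0.0969), Mafg (0.104) and Ppm1a (0.107). Nearest to Ccne1, with a spread of 0.516, were Mapkapk5 (0.0576), Sfswap (0.0903) and Mapk14 (0.0909). Ccna2, with a spread of 0.246, was matched by Plcl2 (0.0489), Isoc2b (0.0489) and Racgap1 (0.0562). Cdc25a, with a spread of 0.132, was matched by Cndp2 (0.0315), Cyb5r2 (0.0386) and Numa1 (0.0468). No gene of the 5 was among the 3 nearest of another: Ccne1 and Ccne2 differed by 0.743 and Ccne2 and Cdk2 by 0.841 in the same measure, and the closest leading probe sets of 2 members were those of Ccna2 and Cdc25a, at 0.188.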

How the data were processed

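Total RNA of 6 samples was extracted with Trizol and columns and labelled with biotin, per the labels' protocols. The authors deposited 1 linear intensity for each probe set and array. The sources used here do not say how scans were turned into these values. Of 45101 probe sets, 64 controls, 4 empty ones and 1 that exceeded what a 16-bit scanner can record (65535) were removed. Of the 45032 kept, 34941 carried 1 gene symbol, 932 several and 9159 none.

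Values were transformed as log2(value + 16) and quantile normalized, and a probe set was tested when its mean over the arrays exceeded the 40th percentile (log2 5.12). All 27019 such probe sets were fitted together in R 4.3.3 with limma 3.58.1, 2-sided, with Benjamini-Hochberg adjustment and a threshold of 0.05. The probe set of highest mean leads each gene. The number of arrays limits the precision, and an exact permutation test of 3 against 3 cannot go below p = 0.1. Arrays of the same replicate number, taken from the titles, deviated together from their group means (correlations 0.639, 0.621 and 0.667, at most 0.0719 between numbers), so pairs are described, and a fit with the number as a block was made. The members, lists and alternatives were chosen with earlier results of these data known. Genes named by rule were the members and the 3 genes with the profile most like each member. In each role of the Cdk2 list they were the 2 with the smallest p, plus Cdkn1a, Cdkn1b, Fbxw7, Skp2, Wee1, Cdc25b and Rb1. Atm, Chek1, E2f2 and E2f3 are given beside them so that their roles are shown in full. The planned comparison of protein sequences was not made.

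Simulated data were drawn from the fit with the block, with the differences between replicate numbers seen here and independent noise. On 10 such data sets of 27019 probe sets the fit without the block recovered 0% of 4-fold changes. The fit with the block recovered 99.6% of them and 61.9% of 2-fold changes, with 9.63% of its calls false. With block, trend and robust moderation these were 98.9%, 70.0% and 10.1%. Both shares of false calls lay above the threshold of 0.05. Because the data were drawn from the blocked model, the simulation favours the block and cannot show which fit suits the real arrays. There the block alone called 0 probe sets.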

Additional observations from a re-analysis of the deposited data

How the results depend on the processing

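Alternatives covered normalization, the offset, the filter, 1 row per gene, the replicate block, variance trend with robust moderation, array weights, a granulocyte covariate and leaving out arrays. The leading probe sets of Ccne1, Ccne2, Ccna2, Cdk2 and Cdc25a kept a positive log2 difference in all 19, and the other 3 member probe sets in the 18 in which they were fitted. Calls appeared only with the replicate block combined with trend and robust moderation. It called 938 probe sets in all, 3 of the members (Ccne2 at 1.83, Ccna2 at 0.47 and Cdk2 at 0.93) and 4 genes of the Cdk2 list, all at the same log2 differences as without it. The replicate block alone, which pairs the arrays, changed no call (lowest adjusted p by limma 0.0999 over all probe sets, 0.107 for Ccne2 and 0.117 for Cdk2). Without 1 array, the log2 difference ranged from 1.21 to 2.18 for Ccne2, from 0.33 to 0.98 for Ccne1, from 0.42 to 0.54 for Ccna2, from 0.76 to 1.11 for Cdk2 and from 0.18 to 0.28 for Cdc25a. Of the list genes named by rule, 6 changed sign somewhere. Cdk7 was -0.021 with the granulocyte covariate. Leaving out 1 array gave ranges of -0.035 to 0.40 for Cdk7 (lowest without Rb-null 3), -0.024 to 0.21 for Pkmyt1, -0.17 to 0.37 for Cdc25c and -0.32 to 0.70 for Cdk2ap2 (these lowest without control 1, and Cdk2ap2 also -0.23 without Rb-null 3), -1.08 to 0.048 for Fbxw7 (highest without control 2) and -0.58 to 0.044 for Atr (highest without Rb-null 3). The cause was not tested. Probe sets below the filter were not tested.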

Other observations

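Further probe sets of genes around Cdk2 were looked at after their values were seen, so they stand as values only. In the Cdk2 list 29 genes had several probe sets that could be tested, and for 7 of these the signs disagreed. Rrm2, the ribonucleotide reductase subunit made for S phase, had log2 differences of 0.87 (SE 0.30) and 0.60 (SE 0.25) on its other probe sets, and 0.33 (SE 0.26) on the brightest. Usp37, a deubiquitinase that acts on cyclin A, had 0.90 (SE 0.41) and 0.68 (SE 0.44), both higher in each pair.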
